A study of Homo sapiens with 6 samples.

Results

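The extracellular matrix genes, the proteases that cut the matrix and the integrin chains that bind it were examined in JIMT-1 cells with and without aCT1. They were chosen by gene symbol, with earlier results of these data known. The rule takes rows of the panel table whose symbol begins with COL and a digit, MMP, ADAM, TIMP or THBS. It also takes symbols that begin with the prefix of a laminin chain, ITGA or ITGB, or that equal FN1 or FREM2. LAMA3, LAMB3, ITGA6 and ITGB1 were left out of the set. Described here are 21 of the 758 genes of the table, and FN1 was not analysed here. The JIMT-1 line, long established from a human HER2+ breast tumor, is resistant to trastuzumab. In 3 samples the cells were given PBS (CTL) and in the other 3 they were given aCT1 at 250 µM, each for 24 h, and all 6 samples were grown in DMEM with serum, glutamine and antibiotics. aCT1 is a biotinylated peptide that copies the end of connexin 43 and carries an antennapedia sequence for entry into cells. The CTL samples received vehicle with no peptide, so an effect of the connexin sequence and an effect of the carrier sequence or the biotin cannot be told apart. RNA was hybridized to barcoded probes that the nCounter instrument counts, and each gene has its own probe, so the counts of different genes do not rank their transcripts. Nothing in the labels says that the 3 samples of a group came from separate cultures. The p-values thus set a difference against a spread between samples that may be technical.

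Epithelial cells rest on a basement membrane, a sheet built from laminins and type IV collagen, and anchor to it through integrins. Integrins are pairs of an alpha and a beta chain that bind matrix proteins outside the cell and the cytoskeleton inside. Matrix metalloproteinases (MMPs) are zinc enzymes that cut collagens, laminins and other matrix proteins, ADAMs are related enzymes tied to the membrane, and TIMPs inhibit them. In breast tumors much of the matrix and many of its proteases come from fibroblasts and immune cells, which a cell line does not contain.

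Each sample carried between 1437572 and 1494919 counts over the 758 genes. Of 9 epithelial markers set for the check, 5 are in the table (ERBB2, GRB7, KRT7, KRT5 and CDH1), and their means lay between 3347 and 9985 normalized counts. Genes of T, B and natural killer cells served as a measure of the level that a probe shows where its gene should be off. The 12 such genes in the table had means between 9.32 and 41.9 normalized counts with a median of 18.4, and the 90th percentile of these means was 28.8. By this measure 16 of the 21 genes lay above background and 5 did not. By a stricter measure, 8 of the 21 had every sample above 54.3, the highest single value of the 12 genes. Of 6 stromal markers, PDGFRA alone had a mean above the 90th percentile of 28.8. The summed level of the 6 was 358 to 373 normalized counts in CTL and 327 to 393 in aCT1. Of 4 endothelial markers PECAM1 alone lay above that percentile (summed level 105 to 123 in CTL and 102 to 105 in aCT1). Of 2 macrophage markers CD68 alone did so (summed level 52.8 to 66.5 in CTL and 42.9 to 56.8 in aCT1). The part of these markers in the results was not tested.

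No matrix, protease or integrin gene passed the test between aCT1 and CTL after adjustment for the 758 genes tested. In limma, 0 of the 21 genes had an adjusted p under 0.05, as had 0% of all genes, and edgeR on recovered counts also gave 0, with 2 of the 21 at an unadjusted p under 0.05 beside 9.37% of all genes. At an unadjusted p under 0.05, FREM2 was higher in aCT1 and THBS2 was lower. The higher count of 1 in 21 stood beside 6.46% of all genes, and the lower count of 1 in 21 stood beside 2.90%. These counts depend on the genes left out of the set. LAMA3 (higher) and LAMB3, ITGA6 and ITGB1 (lower) each had an unadjusted limma p under 0.05 and groups that did not overlap. The 3 aCT1 values lay above the 3 CTL values for FREM2, THBS4 and MMP11, where 9.37% of all genes did so. They lay below for THBS2 and MMP9, where 4.88% of all genes did so. For a single gene, such a separation of 3 samples from 3 has an exact permutation p of 0.1, the smallest that this design allows.

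The log2 fold change was above 0 in 10 of the 21 genes and below 0 in 11, with a median of -0.034. Over all 758 genes it was above 0 in 58.8%, with a median of 0.018. The median size of the difference was 0.13 on the log2 scale in the 21 genes and 0.077 in all genes. Genes with few counts had the wider differences. The 9 genes with a mean of at least 50 normalized counts had a median size of 0.039, and the 12 below had 0.33. Among the 758 genes, 49 were higher and 22 lower at an unadjusted limma p under 0.05, and with quantile normalization these were 41 and 42.

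**Figure D1:**
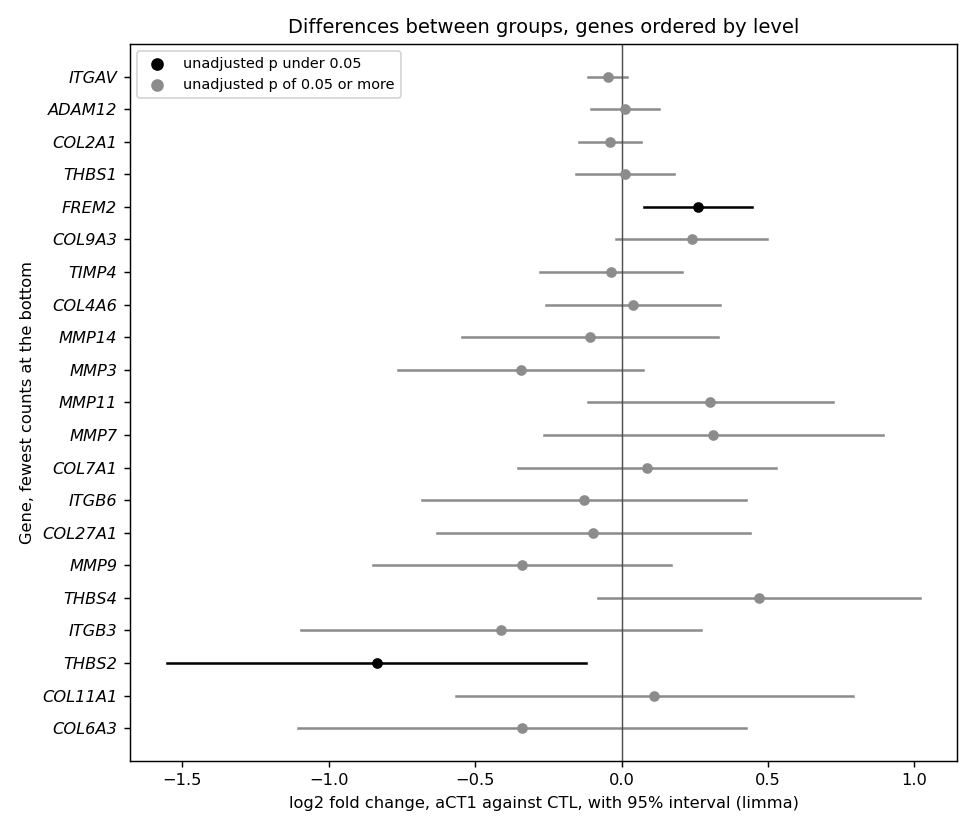
The log2 fold change of each of the 21 genes (x axis, aCT1 against CTL) with its 95% interval from limma, ordered by mean normalized count. Intervals widen toward the genes with few counts, and those of FREM2 and THBS2 (black) leave out 0 before adjustment.

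**Figure D2:**
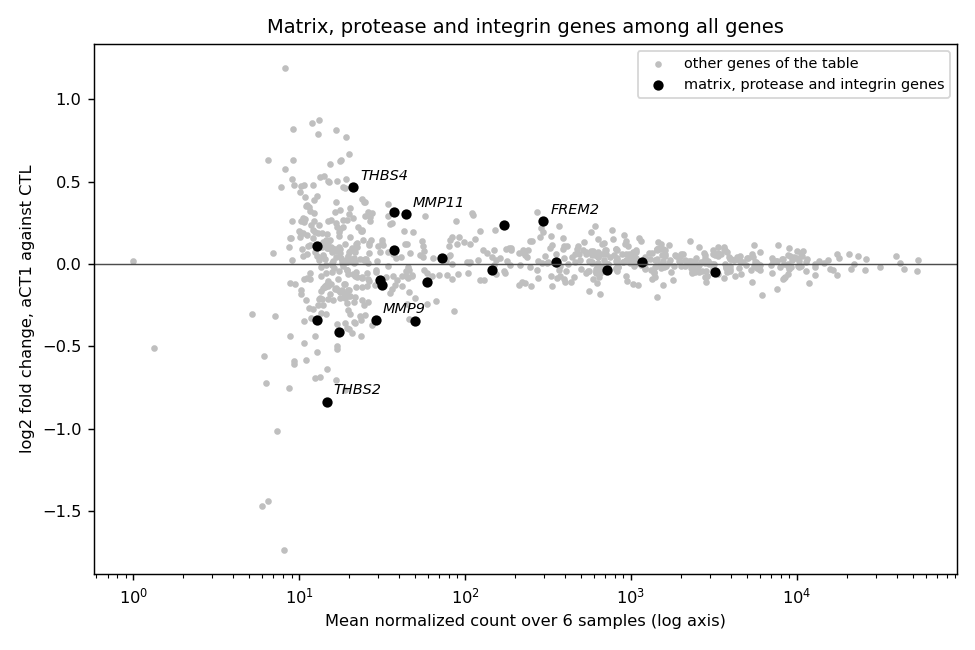
The log2 fold change (y axis) against the mean normalized count on a log axis (x axis) for the 21 genes (black) and the other genes of the table (grey). Named are the 5 genes whose groups did not overlap, and the differences of the other genes spread widely below a mean of 50.

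FREM2 encodes a basement membrane protein that helps to bind epithelium to the tissue beneath it. It had 288, 259 and 256 normalized counts in CTL and 323, 352 and 289 in aCT1. All 3 aCT1 samples lay above all 3 CTL samples, but aCT1 replicate 3 exceeded CTL replicate 1 only slightly. The means were 268 ± 17.3 in CTL and 321 ± 31.3 in aCT1 (SD, n = 3 each), and the log2 fold change was 0.26 (standard error 0.085, 95% interval 0.078 to 0.44). The adjusted limma p was 0.307. Leaving out any 1 sample gave log2 fold changes from 0.19 to 0.33, and the unadjusted limma p stayed under 0.05. It was 0.0504 with quantile normalization, and 0.0553 when its spread was not moderated across genes.

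The thrombospondins are secreted glycoproteins that bind collagens, proteases and integrins, and THBS1 and THBS2 are known as inhibitors of vessel growth. THBS1 had 378, 369 and 316 normalized counts in CTL and 354, 339.8 and 375 in aCT1. The groups overlapped, with a log2 fold change of 0.013 (95% interval -0.16 to 0.18), which changed sign under some settings. THBS2 had 15.7, 25.9 and 15.1 normalized counts in CTL and 8.01, 10.96 and 12.3 in aCT1. Every aCT1 value was below every CTL value, and CTL replicate 2 stood above the other two. The log2 fold change of THBS2 was -0.84 (standard error 0.33), and the adjusted limma p was 0.371. Its mean of 14.6 was under the median of the lymphocyte genes, and its counts ran from 8 to 26. Without CTL replicate 2 the log2 fold change was -0.58 (unadjusted limma p 0.120), and without aCT1 replicate 1 it was -0.66 (unadjusted limma p 0.0827). With a pseudocount of 10 it was -0.49. THBS4 had 16.6, 17.9 and 18.1 normalized counts in CTL and 22.03, 28.9 and 22.5 in aCT1. This gene too was near background, with groups that did not overlap and a log2 fold change of 0.47 (95% interval -0.082 to 1.02, adjusted limma p 0.618). Its unadjusted limma p was 0.0888. The unadjusted p was 0.0111 in limma without the variance trend and 0.0237 when the spread was not moderated across genes. In those fits the standard errors were 0.12 and 0.13, below the counting standard error of 0.26.

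**Figure D3:**
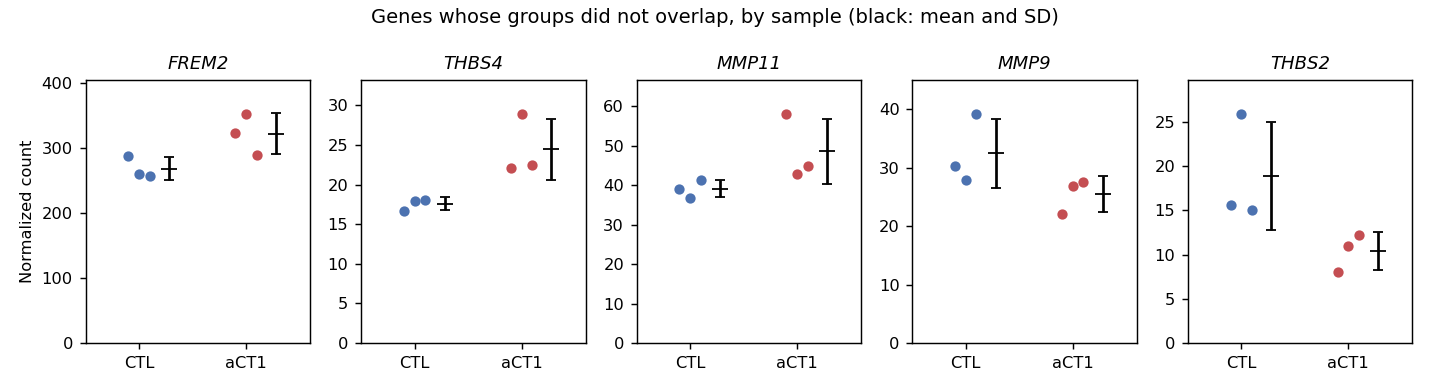
Normalized counts (y axis, from 0) by sample in CTL (blue) and aCT1 (red), with the mean and SD of each group in black, for the 5 genes whose groups did not overlap. FREM2, THBS4 and MMP11 were higher in all 3 aCT1 samples and MMP9 and THBS2 were lower, and all but FREM2 had few counts.

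Promoter sequence is shown for the genes whose groups did not overlap, where it was at hand, and for MMP7, which alone held an AP-1 match. RefSeq promoters (GRCh38.p14) were at hand for 16 of the 21 genes, not for MMP3, MMP9, COL2A1, COL9A3 and ITGB3. The 150 bases before the start site are printed 5′ to 3′ for FREM2 (chr13:38686927-38687076 (plus strand)), MMP11 (chr22:23772699-23772848 (plus strand)), THBS2 (chr6:169253847-169253996 (minus strand)), THBS4 (chr5:79991182-79991331 (plus strand)) and MMP7 (chr11:102530748-102530897 (minus strand)). Capitals mark matches on either strand to the AP-1 motif TGANTCA, the TATA box TATAAA, the GC box GGGCGG and the PEA3 motif AGGAAG.
FREM2: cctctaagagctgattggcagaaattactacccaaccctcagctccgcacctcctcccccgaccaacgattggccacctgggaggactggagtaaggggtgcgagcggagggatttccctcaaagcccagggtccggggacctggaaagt
MMP11: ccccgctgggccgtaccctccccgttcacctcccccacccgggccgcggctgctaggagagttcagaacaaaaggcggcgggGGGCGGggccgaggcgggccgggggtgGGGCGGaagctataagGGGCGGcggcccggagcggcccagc
THBS2: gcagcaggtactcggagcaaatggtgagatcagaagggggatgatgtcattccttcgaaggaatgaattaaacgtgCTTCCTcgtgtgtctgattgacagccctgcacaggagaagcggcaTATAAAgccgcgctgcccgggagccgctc
THBS4: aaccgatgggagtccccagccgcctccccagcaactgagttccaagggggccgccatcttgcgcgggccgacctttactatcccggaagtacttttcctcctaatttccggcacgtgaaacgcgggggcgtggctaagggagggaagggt
MMP7: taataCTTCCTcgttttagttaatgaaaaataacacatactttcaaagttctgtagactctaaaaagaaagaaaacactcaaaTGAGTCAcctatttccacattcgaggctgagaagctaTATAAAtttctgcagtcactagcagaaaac

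Over the 250 bases before the start site, MMP7 was the only member of the 16 with an AP-1 match, where 6.57% of all 35116 promoters hold one. Its AP-1 match began 67 bases before the start and its TATA box 30 bases before. The TATA box letters were also in COL7A1 and THBS2, where 10.7% of all promoters hold them. GC box letters were in 9 of the 16 promoters (42.6% of all promoters, and 58.0% of the 567 promoters of genes in the table), 3 times within the printed stretch of MMP11. PEA3 letters were in 9 of the 16 (28.7% of all promoters, and 30.0% of those of genes in the table), and the window of FREM2 held none of these letters. THBS4 held its GC box and PEA3 letters further upstream than the printed stretch. No matches in the printed stretches shared bases, and a match of letters is a description and does not show binding.

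The basement membrane laminin chains LAMA3 and LAMB3 stand outside the set. Their log2 fold changes were 0.12 for LAMA3 and -0.12 for LAMB3 (adjusted limma p 0.313 and 0.247), and the groups overlapped for neither. In bulk RNA, fewer cells making a transcript and less of it per cell cannot be told apart.

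Of the 3 fibrillar collagens, COL2A1 was well above background and COL11A1 was not. COL2A1 encodes the main collagen of cartilage, a fibrillar collagen not typical of epithelium. It had 711, 717 and 736 normalized counts in CTL and 669, 734 and 705 in aCT1, and its spread within groups was 0.946 times what counting alone gives. The groups overlapped, with a log2 fold change of -0.039 (95% interval -0.14 to 0.068). COL27A1 ranged from 22.9 to 40.0 normalized counts and COL11A1, also a cartilage collagen, from 10.96 to 17.0, with overlapping groups in both.

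COL9A3 encodes a chain of type IX collagen, which decorates type II fibrils in cartilage. It had 148, 142 and 184 normalized counts in CTL and 174, 210.3 and 173 in aCT1. CTL replicate 3 lay within the aCT1 range, and the other CTL samples lay below it. The log2 fold change was 0.24 (standard error 0.12, 95% interval -0.019 to 0.50, adjusted limma p 0.542). The unadjusted limma p was 0.0665. Without CTL replicate 3 the log2 fold change was 0.35 (unadjusted limma p 0.00781), and without aCT1 replicate 3 it was 0.29 (unadjusted limma p 0.0497). Leaving out any other sample gave log2 fold changes from 0.15 to 0.28, with unadjusted limma p from 0.0680 to 0.259. COL4A6, a chain of basement membrane type IV collagen, had 68.5, 72.8 and 72.4 normalized counts in CTL and 74.1, 73.7 and 71.5 in aCT1. These 6 values lay closer together than counting alone gives, at 0.231 times the counting spread, and the log2 fold change was 0.038 (95% interval -0.26 to 0.34). COL7A1, the collagen of the fibrils that anchor the epidermal basement membrane, ranged from 32.0 to 42.9 and COL6A3, a chain of microfibrillar collagen, from 8.01 to 17.9, and their groups overlapped.

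**Figure D4:**
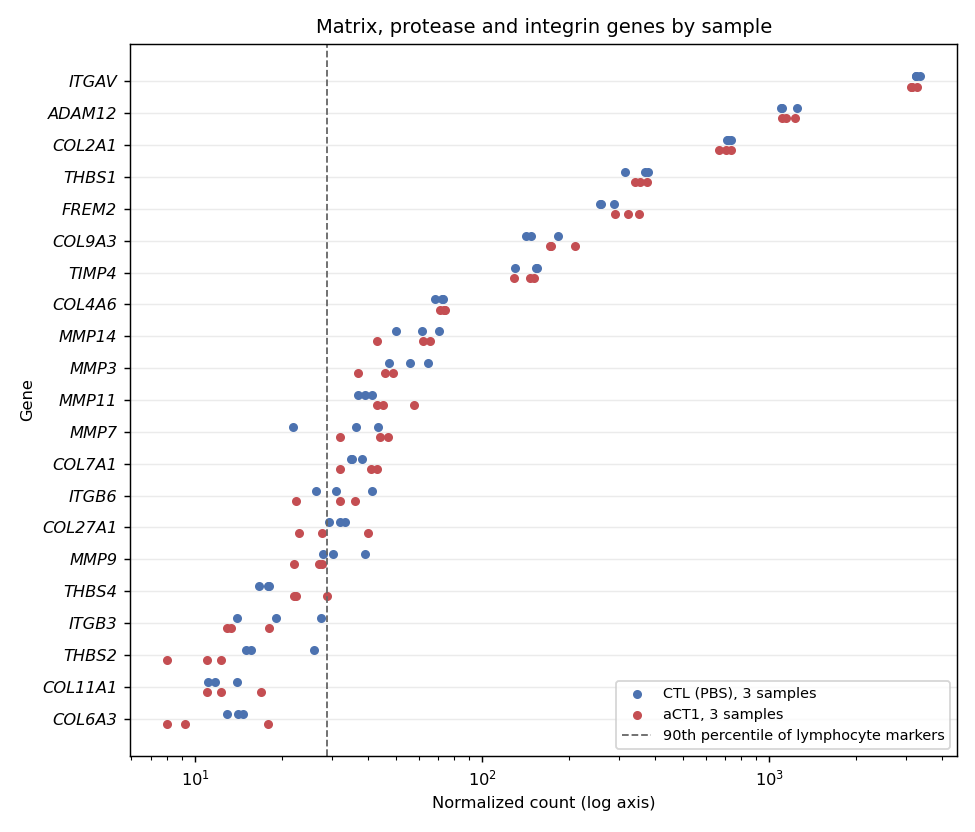
Normalized counts of the 21 genes on a log axis (x axis), with 1 point per sample in CTL (blue) and aCT1 (red). The dashed line is the 90th percentile of the lymphocyte gene means, 28.8, and ITGAV and ADAM12 are the genes above 1000 counts.

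All 4 secreted MMPs had few counts, with means of 29.0 to 49.9 against 28.8 for the background percentile. MMP11, a stromelysin that is activated inside the cell by furin and is known from the stroma of breast tumors, had 39.1, 36.9 and 41.2 normalized counts in CTL and 58.1, 42.8 and 45.0 in aCT1. The groups did not overlap, but aCT1 replicates 2 and 3 lay near the highest CTL sample, and the log2 fold change was 0.30 (standard error 0.19, 95% interval -0.11 to 0.72, adjusted limma p 0.704). With quantile normalization its unadjusted limma p was 0.0380. MMP9, a gelatinase that cuts type IV collagen, had 30.3, 27.9 and 39.2 normalized counts in CTL and 22.03, 26.9 and 27.6 in aCT1. Its groups did not overlap by a margin of less than 1 count, with a log2 fold change of -0.34 (95% interval -0.85 to 0.17, adjusted limma p 0.724).

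MMP3, a stromelysin that also activates other MMPs, ranged from 47.2 to 64.6 normalized counts in CTL and from 36.9 to 49.1 in aCT1. The groups overlapped, and the log2 fold change was -0.34 (95% interval -0.76 to 0.072). MMP7, a small MMP made by epithelial cells themselves, ranged from 21.9 to 43.2 in CTL and from 31.9 to 47.1 in aCT1, with a log2 fold change of 0.31 (95% interval -0.26 to 0.89). The log2 fold changes of the secreted MMPs were thus 2 above and 2 below 0, and the standard error from counting was 0.17 to 0.22 for each.

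MMP14, a collagenase fixed in the cell membrane, had 61.6, 70.8 and 50.3 normalized counts in CTL and 62.1, 65.8 and 42.9 in aCT1. The lowest value of each group was that of replicate 3, the groups overlapped, and the log2 fold change was -0.11 (95% interval -0.54 to 0.33). TIMP4, an inhibitor of MMPs, had 156, 154 and 129.7 normalized counts in CTL and 147, 129.5 and 151 in aCT1, with a log2 fold change of -0.034 (95% interval -0.28 to 0.21). ADAM12, a membrane protease that sheds growth factors of the EGF family, had 1109.7, 1102 and 1249.6 normalized counts in CTL and 1147, 1226 and 1111 in aCT1. Both groups of ADAM12 held 1 high sample, so that the within-group spread was 2.08 times the counting spread, the highest ratio among the 21 genes. Its log2 fold change was 0.011 (95% interval -0.11 to 0.13).

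ITGAV, the alpha chain that pairs with several beta chains in receptors for RGD-bearing matrix proteins, had the most counts of the set. It had 3252, 3348 and 3246 normalized counts in CTL and 3114, 3266 and 3151 in aCT1. Of the aCT1 samples, replicate 2 alone lay within the CTL range, and the log2 fold change was -0.047 (standard error 0.031, 95% interval -0.11 to 0.020, adjusted limma p 0.704). With quantile normalization the ITGAV groups did not overlap and the unadjusted limma p was 0.00893. The standard error there was 0.018, below the counting standard error of 0.021. Over all genes that setting moved the lower count at an unadjusted limma p under 0.05 from 22 to 42. ITGAV had an unadjusted limma p of 0.154 on the deposited values, and every other alternative gave it an unadjusted p above 0.05. Its partner ITGB3 was near background, at 13.96 to 27.4 normalized counts in CTL and 12.95 to 18.0 in aCT1. ITGB6, the partner found on epithelial cells, was just above it, at 26.4 to 41.2 in CTL and 22.5 to 36.0 in aCT1. The log2 fold changes of ITGB3 and ITGB6 were -0.41 (95% interval -1.10 to 0.27) and -0.13 (95% interval -0.68 to 0.43). ITGB1, which also pairs with ITGAV, and ITGA6 stand outside the set, with log2 fold changes of -0.067 and -0.11 (adjusted limma p 0.334 and 0.189). For both, every aCT1 value lay below every CTL value.

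A list of regulators and partners of the matrix had 18 genes in the table, among them TGF-beta ligands, a plasminogen activator and EMT factors. The log2 fold change was above 0 in 10 of them and below 0 in 8, with a median of 0.0044, and 0 had an adjusted limma p under 0.05. At an unadjusted limma p under 0.05, TGFB2, a ligand that induces matrix genes, was higher (log2 fold change 0.32, adjusted limma p 0.189). PLAT, a plasminogen activator, was lower, with 8490.4 ± 114 normalized counts in CTL and 7966 ± 334 in aCT1 (SD, n = 3 each) and a log2 fold change of -0.093 (adjusted limma p 0.307). Of the integrin signalling list, CAV1 and ICAM1 are in the table. CAV1, a caveolar coat protein, had overlapping groups and a log2 fold change of 0.040 (adjusted limma p 0.711). ICAM1, a ligand for leucocyte integrins, had 688 ± 14.8 normalized counts in CTL and 607 ± 52.5 in aCT1 (SD, n = 3 each), a log2 fold change of -0.18 (adjusted limma p 0.307).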

How the data were processed

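Total RNA of 6 JIMT-1 samples was measured on the nCounter platform. The authors counted barcoded probes, normalized to housekeeping genes in nSolver and deposited log2 values and the same values on a linear scale (a signal in normalized counts) for 758 genes. Positive-control scaling and background subtraction are not given in the sources used here. Every linear value was a whole multiple of its sample's step (100% within 1e-05 of a count), which gave the recovered counts.

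The comparison used limma 3.58.1 in R 4.3.3 with a variance trend on all 758 genes, two-sided, with Benjamini-Hochberg adjustment over all of them. The trend was used because levels span few to many counts. edgeR 4.0.16 on the recovered counts was an alternative, and both were tested on simulated data. Other alternatives were limma without the trend, a linear model per gene, the 459 genes that the study lists with statistics, a mean of at least 50, pseudocounts of 1 and 10, median centring, quantile normalization, the replicate number as a block and each sample left out. Members and lists were chosen with earlier results of these data known. The result for 1 gene that the symbol rule also takes is not reported here, and no count or median over the set includes it. Genes with a mean of at least 50, an unadjusted p under 0.05 or groups without overlap are given in full and the others by range. The depth of 1437572 to 1494919 counts gives FREM2 a counting standard error of 0.069 on the log2 scale and THBS2 0.32. These cover counting error only. Each sample's group comes from its title.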

Additional observations from a re-analysis of the deposited data

How the results depend on the processing

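Of the 13 genes given in full, 9 kept the direction of their difference under those of the 16 alternatives that could give a value. The number of genes in the set with an adjusted p under 0.05 was 0 under each. Over all genes tested the number was 6 with quantile normalization and 0 or 1 under each other alternative. At an unadjusted limma p under 0.05, the set's higher count of 1 became 2 without the variance trend and ranged from 1 to 2 with a sample left out. Over all 758 genes the higher count of 49 became 34 without the trend and ranged from 30 to 55 with a sample left out. The higher gene was FREM2 in limma with the trend, THBS4 in the model without moderation and MMP11 with quantile normalization. The lower count of 1, THBS2, became 0 without moderation and 2 with quantile normalization. It was 0 over the 459 listed genes or with a mean of at least 50, as both left THBS2 out. With a sample left out it ran from 0 to 2. Genes of the set with groups that did not overlap numbered 3 higher and 2 lower. These became 1 and 4 with quantile normalization. Left-out genes made them 1 and 0 with a mean of at least 50, and 0 lower over the 459 listed genes. With a sample left out, 3 to 5 were higher (5 without CTL replicate 3). From 2 to 5 were lower (4 without CTL replicate 3, 5 without aCT1 replicate 1 or 2). Groups separate more easily with a sample left out, and the same counts over all genes are not given here. The count above 0 was 5 of 9 with a mean of at least 50 and ranged from 9 to 11 with a sample left out. The median log2 fold change of -0.034 became 0.012 over the 459 listed genes and 0.011 with a mean of at least 50, where fewer genes of the set were tested, and ranged from -0.033 to 0.032 with a sample left out. Differences near 0 reversed: ADAM12 (-0.010) and THBS1 (-0.020) with quantile normalization, and with a sample left out ADAM12 ranged from -0.029 to 0.070, THBS1 from -0.068 to 0.062, TIMP4 from -0.12 to 0.033 and MMP14 from -0.24 to 0.083. The cause was not tested.

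A fit that took the replicate number as a block gave 1 higher and 1 lower gene of the set at an unadjusted limma p under 0.05, and 0 after adjustment. Deviations of same-numbered samples correlated at 0.078, 0.19 and -0.23 over genes with a mean of at least 50. Those of samples with different numbers ran from -0.36 to 0.31. With 3 samples per group this cannot settle whether same-numbered samples were paired. The block changed no call of the set. At the level of THBS2 the counting standard error of the log2 fold change was 0.32, and the 95% interval ran from -1.55 to -0.12.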

Other observations

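The ratio of a pair of probes within a sample does not depend on the scaling of that sample. The pair given here was chosen after its values were seen, so no test is given. The log2 ratio of MMP11 to MMP3 was -0.72, -0.60 and -0.20 in CTL and 0.24, 0.22 and -0.032 in aCT1, without overlap. Neither probe had over 66 counts in any sample, and the part of counting error in this difference was not tested. Within their groups the 21 genes spread by a median of 1.10 times the counting spread, and all 758 genes by 1.18 times.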
